A study of Mus musculus with 6 samples.

Results

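The genes described here are 26 genes of cholesterol synthesis and uptake, chosen by name from the mevalonate and sterol synthesis enzymes, the regulators of the SREBP transcription factors, and the proteins of sterol transport and efflux. All 26 were found among the 35565 genes of the count table, and all 26 were among the 15110 genes with enough counts to be tested. They were measured by bulk RNA-seq in gastruloids, which are aggregates of mouse embryonic stem cells (mESCs) that form elements of the embryonic body plan in culture. The aggregates were collected on day 5 (120 h) from TBV2 mESCs of the 129/SvP strain, after a pulse of the WNT pathway activator CHIR99021. The comparison asks which genes differ when *T-UCstem1*, a long non-coding RNA, is lowered. Control (NT) was represented by 3 libraries, from non-targeting cells that the sample labels call WT, and KD-1 by 3 libraries, from cells in which *T-UCstem1* was knocked down. KD-1 is 1 clone, and nothing states that the libraries of a group came from separate differentiations, so p-values measure the spread between these libraries, which may be technical.

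Animal cells build cholesterol from acetyl-CoA through mevalonate, farnesyl diphosphate, squalene and lanosterol, and also take it up as lipoprotein particles. When sterols in the endoplasmic reticulum run low, SCAP carries the SREBP precursors to the Golgi, where they are cleaved into active factors that bind the promoters of most of these enzymes. INSIG proteins hold SCAP back when sterols are plentiful. In embryos the pathway also supplies cholesterol for the lipid modification of Hedgehog proteins and isoprenoids for the anchoring of small GTPases to membranes.

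The module did not move as one block. A gene was called when its fold change passed 1.5 in either direction at an adjusted p under 0.05 (edgeR's quasi-likelihood test over all 15110 genes). By this rule 1 member, the sterol carrier gene *Stard4*, was called higher in KD-1, and 5 were called lower, namely *Mvk*, *Pmvk*, *Mvd*, *Tm7sf2* and *Scap*. The 6 members called were 23.1% of the 26, while 37.7% of all genes tested were called, 19.7% higher and 18.1% lower. The median absolute log2 fold change was 0.35 over the members and 0.49 over all genes tested. With no fold threshold, 6 members passed the adjusted p higher and 10 lower, together 61.5% of the members against 63.5% of all genes, of which 30.9% were higher and 32.6% lower. The 3 KD-1 values did not overlap the 3 Control (NT) values for 21 members, or 80.8%, against 70.6% of all genes. The share called was thus below that of the whole table, while the share that passed the adjusted p alone was near it. Apart from *Mvk* and *Abca1*, each member had a mean level above the median of the genes tested. Whether these higher levels bear on the shares and on the median fold change was not tested.

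Fold changes across the whole table fell with the GC content of the transcript, and those of the members ran in the same direction. Over the 15053 genes tested that have a GC value, Spearman's rho between log2 fold change and GC content was -0.35, and over the 26 members it was -0.77, both across genes that share the same 6 libraries. The 5 members called lower had transcripts of 56.1% to 59.4% GC, among the 3011 most GC-rich genes, whose median log2 fold change was -0.41. The 7 members in that range had a median of -0.68. Of the 3011 genes 35.5% were called lower, against 18.1% of all genes tested. The 6 members that passed the adjusted p higher had 39.0% to 49.9% GC. In each library the median level of these 3011 genes was compared with that of the 3011 most GC-poor genes, after centring every gene on its mean over the libraries. The difference on the log2 scale was 0.12, 0.52 and 0.35 for the Control (NT) libraries. It was -0.26, -0.34 and -0.38 for the KD-1 libraries, so the groups did not overlap in this difference. The difference is drawn from the same values as the fold changes and shows their gradient library by library. Whether the gradient arose in library preparation or in expression was not tested. A correction for GC content, chosen after seeing the data, left *Mvk* alone among the members called, and with no fold threshold it gave 5 members higher and 10 lower. The part of the GC gradient in the results was not tested, and the corrected value stands beside each named gene whose call or adjusted p it carries across a threshold.

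**Figure D1:**
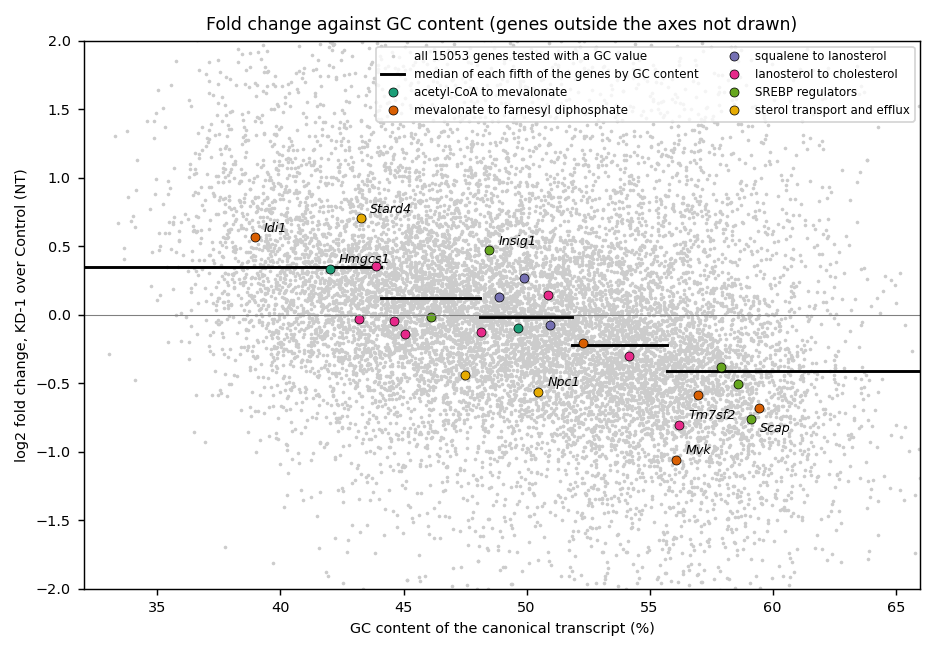
The log2 fold change of KD-1 over Control (NT) is plotted against the GC content of the canonical transcript in percent. Grey points are the 15053 genes tested that have a GC value, except those outside the axes, which are not drawn. The 26 members are coloured points by role, and a black line marks the median of each of 5 equal bins of genes by GC content. The medians descend from 0.35 in the most GC-poor bin to -0.41 in the most GC-rich one, and the 5 members called lower all lie at the GC-rich end.

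The promoters of the members are shown first, since the pathway is best known as one set of genes bound by SREBPs together with NF-Y and Sp1. The RefSeq promoter windows used here hold 300 bases, mostly upstream of the start site (build GRCm38.p6), and 21 of the 26 members matched one. In them 4 motifs were searched on both strands, the sterol regulatory element (SRE) as TCACNCCAC, the E-box CACGTG, the NF-Y box CCAAT and the GC box GGGCGG. The windows below are those of *Hmgcs1*, the member with a match to the SRE letters, of *Insig1* and *Mvk*, SREBP-regulated genes that moved in opposite directions, and of *Scap*, a called member with no NF-Y box. Capitals mark every motif match, on either strand.

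Hmgcs1, chr13:119690101-119690400, plus strand: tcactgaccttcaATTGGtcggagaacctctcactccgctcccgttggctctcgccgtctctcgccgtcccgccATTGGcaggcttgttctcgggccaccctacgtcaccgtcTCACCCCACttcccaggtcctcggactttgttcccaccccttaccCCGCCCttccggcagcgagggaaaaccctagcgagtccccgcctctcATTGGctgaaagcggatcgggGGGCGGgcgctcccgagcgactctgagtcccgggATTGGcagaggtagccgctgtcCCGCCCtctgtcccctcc
Insig1, chr5:28071162-28071461, plus strand: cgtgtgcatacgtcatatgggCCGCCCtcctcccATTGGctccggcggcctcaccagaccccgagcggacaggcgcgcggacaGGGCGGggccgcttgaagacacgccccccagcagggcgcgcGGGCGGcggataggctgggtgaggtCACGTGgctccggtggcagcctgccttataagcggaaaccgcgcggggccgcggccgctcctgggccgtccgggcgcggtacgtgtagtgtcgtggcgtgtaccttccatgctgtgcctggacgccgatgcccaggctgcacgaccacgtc
Mvk, chr5:114444019-114444318, plus strand: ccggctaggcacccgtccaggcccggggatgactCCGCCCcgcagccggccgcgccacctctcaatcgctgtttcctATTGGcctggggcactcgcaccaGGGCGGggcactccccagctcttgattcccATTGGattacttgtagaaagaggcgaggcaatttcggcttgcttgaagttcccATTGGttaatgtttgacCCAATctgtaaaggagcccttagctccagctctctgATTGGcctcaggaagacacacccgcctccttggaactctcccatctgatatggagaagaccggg
Scap, chr9:110333106-110333405, plus strand: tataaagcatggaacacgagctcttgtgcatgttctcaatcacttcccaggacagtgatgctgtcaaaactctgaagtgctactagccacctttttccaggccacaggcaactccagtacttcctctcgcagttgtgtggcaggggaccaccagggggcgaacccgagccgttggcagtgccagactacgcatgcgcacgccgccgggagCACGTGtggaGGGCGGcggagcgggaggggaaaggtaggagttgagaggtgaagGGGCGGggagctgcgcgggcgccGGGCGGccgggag

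NF-Y and GC boxes were frequent among the members. The NF-Y box was found in 18 of the 21 members with a window (85.7%), against 43.5% of the 10970 tested genes with one and 37.4% of all windows of this length. The GC box was found in 20 of the 21 (95.2%), against 68.0% of tested genes and 35.7% of all windows. An E-box was found in 6 members, *Abca1*, *Dhcr7*, *Hsd17b7*, *Insig1*, *Sc5d* and *Scap* (28.6%), against 11.4% of tested genes and 7.15% of all windows. The SRE letters matched in *Hmgcs1* only (4.76%), against 1.42% of tested genes and 1.24% of all windows. These are letter matches within a short window and say nothing about binding. Members called lower and members that rose both carried the NF-Y box, with 5 matches in *Mvk*, 4 in *Hmgcs1*, 2 each in *Mvd* and *Idi1*, and 1 in *Insig1*.

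The levels of the members spanned a wide range, with the same genes at the top and at the bottom in both groups. Per kilobase of transcript, the highest levels in Control (NT) were 145 CPM (counts scaled to a common library size) per kb for *Fdps*, 136 for *Hmgcs1* and 116 for *Idi1*. The lowest were 0.480 CPM per kb for the efflux pump gene *Abca1* and 4.16 for *Mvk*. In KD-1, *Hmgcs1* and *Idi1* stood at 172 CPM per kb each and *Fdps* at 125, while *Abca1* stood at 0.351 and *Mvk* at 2.00. The canonical *Mvk* transcript holds a repeat that many other transcripts share, so its level per length is less certain than the others. Whether reads of the repeat also bear on the fold change of *Mvk* was not tested. Of the SREBP genes, *Srebf2* stood at 23.5 CPM per kb in Control (NT), above *Srebf1* at 7.72. Summed over the 18 synthesis enzymes, the mean level was 2189 CPM in Control (NT) and 2395 CPM in KD-1. *Hmgcs1* and *Idi1* were the largest terms of the sum in both groups, and the higher sum in KD-1 rested on them. *Hmgcs1* rose from 558 to 705 CPM and *Idi1* from 301 to 445 CPM. With the GC content correction their log2 fold changes were 0.07 and 0.05. Of the 18 enzymes, 10 had KD-1 values all below those of Control (NT), 5 had them all above, and 3 had overlapping groups.

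**Figure D2:**
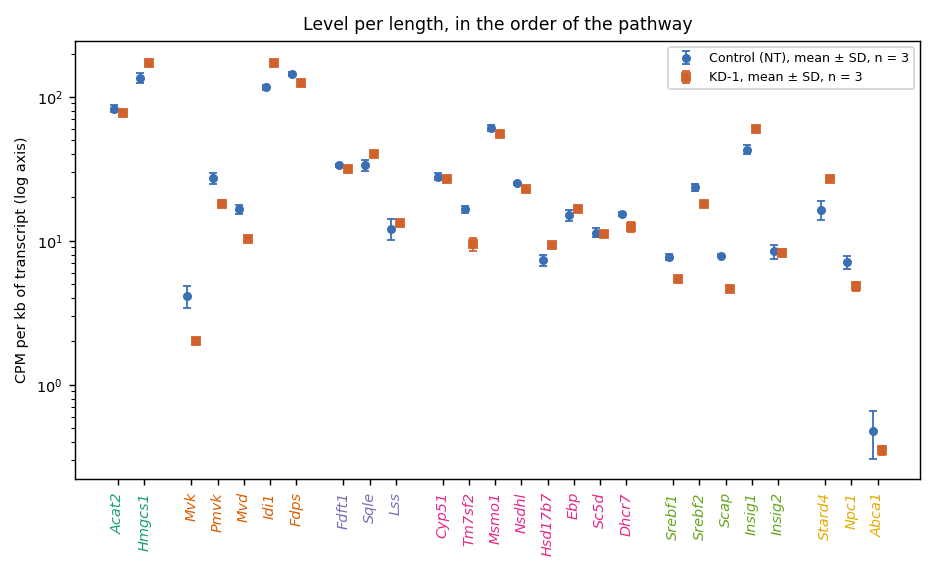
The level of each member in CPM per kb of transcript is shown on a log axis, as the mean with its SD over 3 libraries, for Control (NT) (circles) and KD-1 (squares), with the genes in pathway order and label colours marking the roles. *Fdps*, *Hmgcs1* and *Idi1* are the highest in both groups and *Abca1* the lowest.

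The first steps of the pathway join acetyl-CoA units into HMG-CoA. *Acat2* (chr17:13161367-13179641, minus strand, GRCm39) encodes the cytosolic thiolase, and *Hmgcs1* (chr13:120151915-120170470, plus strand) encodes the cytosolic HMG-CoA synthase, a standard SREBP target. The values that follow are CPM after TMM scaling, and within each group they run from the library of lowest to that of highest depth, an order with no meaning of its own. *Hmgcs1* was at 594, 510 and 571 CPM in Control (NT) and at 693, 699 and 724 CPM in KD-1. The KD-1 values all lay above the Control (NT) values, and the log2 fold change was 0.34 ± 0.07 (SE, n = 3 per group; adjusted p = 0.00234), below the fold threshold. With the GC content correction it was 0.07 (adjusted p = 0.304). *Acat2* measured 220 ± 12.3 CPM in Control (NT) and 206 ± 1.86 CPM in KD-1 (SD, n = 3), a log2 fold change of -0.09 with a 95% interval of -0.23 to 0.04. Its near copy *Acat3* held only 49 counts over all 6 libraries, against 60096 for *Acat2*. *Acat2* also shares 322 exon bases on the other strand with *Tcp1*, which held 204392 counts.

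Of the 5 enzymes from mevalonate to farnesyl diphosphate, 3 were called (60%), against 37.7% of all genes tested. These 3 were among the most GC-rich genes, of which 35.5% were called lower. The kinases *Mvk* and *Pmvk* and the decarboxylase *Mvd* fell, *Fdps* fell slightly, and the isomerase *Idi1* rose. Their median log2 fold change was -0.59, against -0.01 over all genes tested. The median was -0.25 with the GC content correction, and *Mvk* alone of the 5 was called. *Mvk* (chr5:114582267-114601803, plus strand, GRCm39), which phosphorylates mevalonate, was at 17.7, 24.4 and 19.1 CPM in Control (NT) and at 9.54, 9.74 and 10.2 CPM in KD-1. Every KD-1 library thus lay below every Control (NT) library, and the level was 2.08-fold lower (log2 fold change -1.06 ± 0.12, adjusted p = 9.96e-05). *Mvk* had the largest fall of the 26 members, and it was also called with the GC content correction (-0.75, adjusted p = 0.00021).

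*Mvd* (chr8:123160336-123170324, minus strand), whose product makes isopentenyl diphosphate, was at 29.2, 33.9 and 32.1 CPM in Control (NT) and at 19.5, 20.7 and 19.2 CPM in KD-1. It fell by 0.68 on the log2 scale (SE 0.08, adjusted p = 8.6e-05), and with the GC content correction the value was -0.25 (adjusted p = 0.00813). *Pmvk* (chr3:89361758-89376323, plus strand), the second kinase, was at 30.2, 31.8 and 35.5 CPM in Control (NT) and at 20.5, 21.4 and 23.1 CPM in KD-1. The groups were apart for both genes. The log2 fold change of *Pmvk*, -0.59 ± 0.08 (adjusted p = 0.000333), lay on the threshold, and it was called in 7 of 18 settings, that is in this fit and 6 of 17 alternatives. Without the Control (NT) library of highest depth it was -0.52, and without the KD-1 libraries of lowest and middle depth -0.53 and -0.56, each short of 1.5-fold. With the GC content correction it was -0.25 (adjusted p = 0.035).

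*Idi1* (chr13:8935537-8942487, plus strand), which interconverts the isoprenoid building blocks, went the other way. It was at 309, 306 and 288 CPM in Control (NT) and at 427, 447 and 461 CPM in KD-1. No KD-1 library came near the Control (NT) range, and the log2 fold change of 0.56 ± 0.06 (adjusted p = 4.66e-05) fell just short of 1.5-fold. Its transcript was the most GC-poor of the members (39.0%), and with the GC content correction its value was 0.05 (adjusted p = 0.558). *Fdps*, which makes farnesyl diphosphate, the branch point to sterols and prenylated proteins, measured 189 ± 6.04 CPM in Control (NT) and 164 ± 3.29 CPM in KD-1 (log2 fold change -0.21 ± 0.05, adjusted p = 0.00732). The value was -0.08 with the GC content correction (adjusted p = 0.133). Processed pseudogenes took almost none of these reads, with 10 counts for those of *Fdps* and 3 for those of *Idi1* over all libraries, against 49132 and 110196 for the genes themselves.

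From squalene to lanosterol, the single gene that passed the test was *Sqle*, which encodes squalene epoxidase, a rate-limiting enzyme of the sterol branch. *Sqle* (chr15:59186869-59203043, plus strand) was at 88.9, 104 and 89.4 CPM in Control (NT) and at 116, 114 and 110 CPM in KD-1, so the groups were apart by a small margin. Its log2 fold change was 0.27 ± 0.07 (adjusted p = 0.0101), and it stayed at 0.27 with the GC content correction (adjusted p = 0.0109). The squalene synthase gene *Fdft1* had a log2 fold change of -0.08 (95% interval -0.19 to 0.04). The lanosterol synthase gene *Lss* had one of 0.13 (-0.11 to 0.38), with overlapping groups, and the Control (NT) library of middle depth, at 63.1 CPM, lay below the other 2 at 86.3 and 82.7 CPM. *Fdft1* shares 1184 exon bases with *Ctsb* on the other strand, which fell (log2 fold change -0.63, adjusted p = 5.87e-05). Since the use of strand is not stated, reads there could be shared. The same holds for other members, such as *Acat2* with *Tcp1*, *Cyp51* with *Akap9* (1253 bases) and *Srebf1* with *Rai1* (114 bases).

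The 8 enzymes that turn lanosterol into cholesterol held 1 called gene. *Tm7sf2* (chr19:6112851-6118403, minus strand), which encodes a sterol reductase, was at 23.2, 25.3 and 25.6 CPM in Control (NT) and at 15.4, 14.7 and 12.6 CPM in KD-1. Its level was 1.75-fold lower with no overlap (log2 fold change -0.80 ± 0.09, adjusted p = 0.00011), and with the GC content correction the value was -0.50 (adjusted p = 0.00066). *Tm7sf2* shares 532 exon bases on the same strand with *Vps51*, which also fell (-1.03, adjusted p = 0.000114), and reads of the shared part cannot be assigned with certainty. *Lbr*, whose product carries out the same reductase step besides its role in the nuclear lamina, is no member but bears on this step, and it was chosen after its values were seen. *Lbr* measured 148 ± 0.932 CPM in Control (NT) and 278 ± 1.42 CPM in KD-1, 1.87-fold higher (log2 fold change 0.90 ± 0.05, adjusted p = 1.13e-06). *Lbr* lies on chromosome 1, where 871 genes were tested and their log2 fold changes had a median of 0.49, against -0.05 on the other autosomes.

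A further 2 genes of this stretch passed the adjusted p below the fold threshold. *Dhcr7*, which catalyses the last step of one route, was at 45.8, 43.9 and 46.3 CPM in Control (NT) and at 40.3, 35.3 and 34.8 CPM in KD-1. Its log2 fold change was -0.30 ± 0.07 (adjusted p = 0.00697), and -0.09 (adjusted p = 0.312) with the GC content correction. *Hsd17b7*, a keto reductase gene that also lies on chromosome 1, was at 37.1, 31.4 and 33 CPM in Control (NT) and at 41.9, 43.6 and 44.3 CPM in KD-1. It rose by a log2 fold change of 0.36 ± 0.08 (adjusted p = 0.00335), less than the median of its chromosome, and had 0.17 with the GC content correction (adjusted p = 0.0411). The other 5 did not pass the test. Their log2 fold changes were -0.04 for the demethylase gene *Cyp51* (95% interval -0.18 to 0.09), -0.14 for the methylsterol oxidase gene *Msmo1* (-0.27 to -0.01, adjusted p = 0.051), -0.13 for the decarboxylase gene *Nsdhl*, 0.14 for the isomerase gene *Ebp* and -0.03 for the desaturase gene *Sc5d* (-0.19 to 0.13). With the GC content correction *Cyp51*, *Msmo1*, *Nsdhl* and *Sc5d* passed the adjusted p, at -0.22, -0.31, -0.20 and -0.25, and *Ebp* at 0.20.

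**Figure D3:**
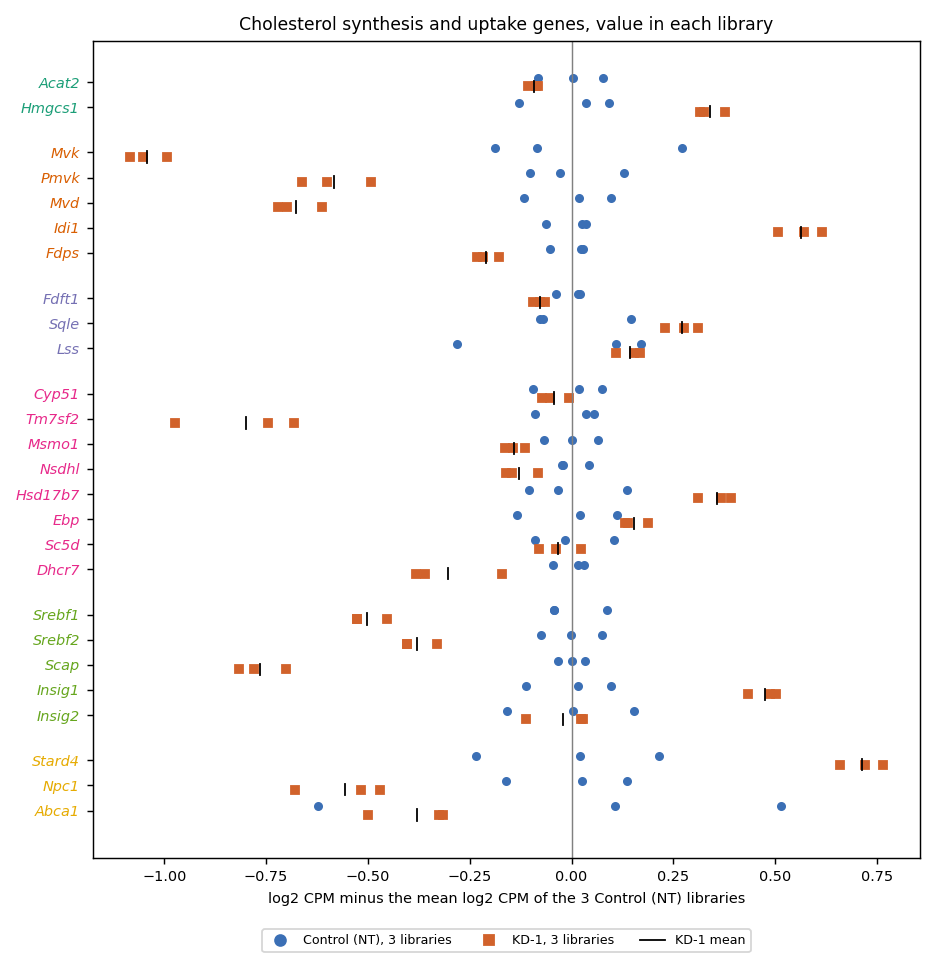
Each row is 1 member, and each point is 1 library, placed at its log2 CPM minus the mean log2 CPM of the 3 Control (NT) libraries, with circles for Control (NT), squares for KD-1, a bar at the KD-1 mean and label colours marking the roles. *Mvk*, *Tm7sf2*, *Scap*, *Mvd* and *Pmvk* lie to the left of all Control (NT) points and *Stard4*, *Idi1*, *Insig1*, *Hsd17b7* and *Hmgcs1* to the right, while *Abca1* has the widest Control (NT) spread.

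Among the SREBP regulators, the escort protein gene and both SREBP genes fell, and *Insig1* rose. *Scap* (chr9:110158229-110214024, plus strand, GRCm39) was at 34.2, 32.6 and 33.5 CPM in Control (NT) and at 19.5, 20.5 and 19.0 CPM in KD-1. The replicates were tight, and the fall of 1.70-fold was called (log2 fold change -0.77 ± 0.07, adjusted p = 1.83e-05). With the GC content correction it was -0.35 (adjusted p = 0.0104). *Srebf2*, the factor that mainly drives cholesterol synthesis, was at 113, 119 and 126 CPM in Control (NT) and at 95.0, 90.2 and 90.3 CPM in KD-1. *Srebf1*, whose products mainly drive fatty acid synthesis, was at 32.4, 32.5 and 35.5 CPM in Control (NT) and at 23.2, 24.4 and 23.2 CPM in KD-1. Neither gene had overlapping groups. The log2 fold changes were -0.38 ± 0.06 for *Srebf2* (adjusted p = 0.000561) and -0.51 ± 0.07 for *Srebf1* (adjusted p = 0.000262), and with the GC content correction they were -0.01 (adjusted p = 0.947) and -0.11 (adjusted p = 0.311).

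*Insig1* (chr5:28276315-28283668, plus strand), which encodes a sterol-sensing retention protein and is itself induced by SREBPs, was at 119, 126 and 109 CPM in Control (NT) and at 166, 164 and 158 CPM in KD-1. Its log2 fold change was 0.47 ± 0.07 (adjusted p = 0.00028), and 0.42 (adjusted p = 0.000827) with the GC content correction. Over this fit and all 17 alternatives its log2 fold change lay between 0.42 and 0.53, short of the fold threshold in each. *Insig2*, its paralog on chromosome 1, had overlapping groups, at 23.5 ± 2.55 CPM in Control (NT) and 23.1 ± 1.26 CPM in KD-1 (log2 fold change -0.02, 95% interval -0.23 to 0.19).

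The 3 transport genes moved in both directions. *Stard4*, which encodes a soluble protein that carries cholesterol between membranes and is a known SREBP target, was at 101, 73.7 and 87.9 CPM in Control (NT) and at 137, 143 and 147 CPM in KD-1. It had the largest rise of the members, 1.63-fold (log2 fold change 0.71 ± 0.10, adjusted p = 0.000372), and with the GC content correction it was 0.50 (adjusted p = 0.000792). *Npc1*, whose product exports cholesterol from late endosomes and lysosomes, was at 38.2, 33.6 and 41.3 CPM in Control (NT) and at 27.1, 26.2 and 23.5 CPM in KD-1. It fell by 0.56 on the log2 scale (SE 0.09, adjusted p = 0.000883), just short of 1.5-fold, and the value was -0.53 with the GC content correction (adjusted p = 0.000746). *Npc1* shares 1086 exon bases with *Rmc1* on the other strand, whose own log2 fold change was 0.01.

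*Abca1*, the efflux pump gene that liver X receptors induce, was at 6.70, 3.05 and 5.05 CPM in Control (NT) and at 3.74, 3.77 and 3.31 CPM in KD-1. The Control (NT) library of middle depth lay below all KD-1 libraries and the other 2 lay above them. The log2 fold change was -0.44 ± 0.25 (95% interval -1.01 to 0.14, adjusted p = 0.159), and without that library it was -0.68 (adjusted p = 0.00154), which passed both thresholds.

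**Figure D4:**
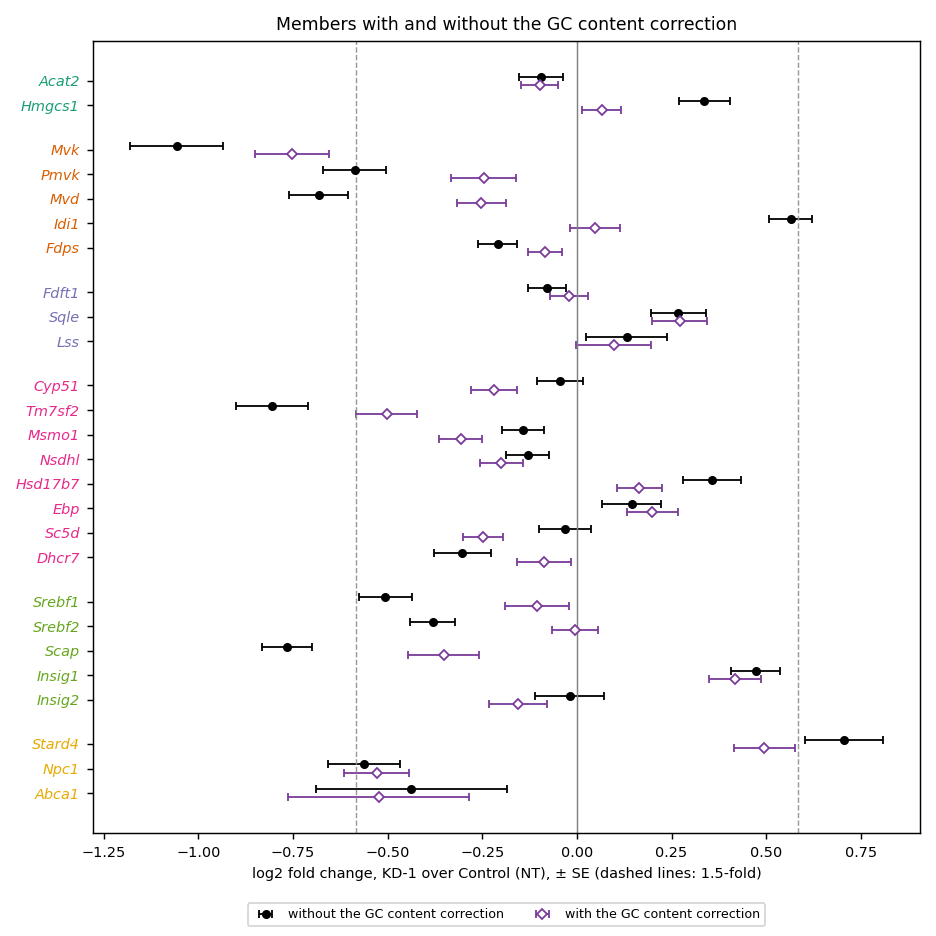
The log2 fold change of each member is drawn with its SE without the GC content correction (filled circles) and with it (open diamonds), and dashed lines mark 1.5-fold. *Mvk* is the one member beyond the dashed lines in both, *Insig1*, *Sqle* and *Npc1* hardly move, and *Idi1*, *Hmgcs1*, *Srebf1* and *Srebf2* come close to 0.

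The cell types of the gastruloids differed between the groups, and in bulk samples fewer cells of a type and less RNA per cell cannot be told apart. All 8 somite and paraxial mesoderm markers were called lower, with a summed level of 528 to 608 CPM in Control (NT) and 45.2 to 45.8 CPM in KD-1. Of 8 naive pluripotency markers 6 were called higher and none lower, with sums of 424 to 474 CPM and 1384 to 1420 CPM. Of 6 neural markers 3 were called higher, with sums of 43.5 to 50.7 CPM and 144 to 147 CPM. Of 7 primitive streak and tail bud markers 2 were called higher and 2 lower, with sums of 52.1 to 58.9 CPM and 53.2 to 57.8 CPM, and *Msgn1* was at or below 3 counts in every library. The endothelial sums, mostly *Pecam1*, were 16.8 to 18.2 CPM and 33.1 to 35.2 CPM (2 of 5 higher, 1 lower). *Pecam1* and *Tek* were called higher and *Kdr* lower. *Cdh5*, too low to be tested, was at 0.318 CPM in Control (NT) and 0.0233 CPM in KD-1. The definitive endoderm sums, mostly *Trh*, were 133 to 157 CPM and 260 to 269 CPM (1 of 6 higher, 2 lower). *Trh* was the gene called higher, with means of 130 CPM in Control (NT) and 265 CPM in KD-1. *Cer1* was called lower, from 14.6 to 0.0460 CPM, and so was *Foxa1*, from 0.807 to 0.128 CPM.

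Markers of visceral and yolk sac endoderm and of steroid-producing cells, which handle much sterol of their own, were low. Visceral and yolk sac endoderm markers summed to 0.578 to 0.920 CPM in Control (NT) and 1.24 to 1.27 CPM in KD-1, with 1 of 8 called higher and *Afp*, *Apoa4* and *Ttr* at or below 3 counts in every library. Steroid-producing cell markers summed to 2.07 to 3.46 CPM and 2.69 to 3.62 CPM, with 1 of 4 lower and *Cyp17a1* and *Hsd3b1* at or below 3 counts. Cardiac markers summed to 3.23 to 4.11 CPM and 0.242 to 0.437 CPM (1 of 5 lower), and fibroblast markers to 3.20 to 3.59 CPM and 0.667 to 0.896 CPM (2 of 6 lower). The part of these cell type differences in the members' changes was not tested.

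Beside the members, 47 other genes of cholesterol metabolism were listed, of which 46 were tested. Of these, 13 were called higher and 7 lower (43.5%, against 37.7% of all genes), and their median log2 fold change was 0.01. The largest rises were in *Lipa* and *Abcg1*. *Lipa*, the lysosomal acid lipase that frees cholesterol from its esters, was at 0.530, 0.414 and 0.577 CPM in Control (NT) and at 10.4, 11.6 and 11.3 CPM in KD-1, 21.5-fold higher (log2 fold change 4.42 ± 0.16, adjusted p = 1.45e-07). *Abcg1*, a sterol efflux transporter gene, was at 0.964, 1.36 and 0.992 CPM in Control (NT) and at 7.10, 7.88 and 6.94 CPM in KD-1, 6.58-fold higher (2.72 ± 0.17, adjusted p = 2.96e-06). Both genes were low in Control (NT), with no overlap between the groups, and their fold changes were larger in size than that of any member.

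*Lima1*, whose product acts in intestinal cholesterol uptake besides its role in the actin skeleton, rose 4.42-fold (2.14 ± 0.08, adjusted p = 1.85e-07), from 34.5 ± 3.82 to 153 ± 2.25 CPM. *Cyp46a1*, which hydroxylates cholesterol in neurons, rose 4.41-fold (2.14 ± 0.18, adjusted p = 1.71e-05), from 0.867 ± 0.126 to 3.87 ± 0.0941 CPM. The largest falls were in *Mylip*, a ubiquitin ligase gene that liver X receptors induce (3.33-fold lower, -1.74 ± 0.11, adjusted p = 3.13e-06), and *Gramd1a*, a carrier of plasma membrane cholesterol (3.12-fold lower, -1.64 ± 0.08, adjusted p = 5.53e-07). *Nr1h3*, a liver X receptor gene that was at 0.909 ± 0.130 CPM in Control (NT), fell by 1.06 on the log2 scale (adjusted p = 0.0171), but with the GC content correction its value was -0.67 (adjusted p = 0.0947).

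Fatty acid synthesis and the other isoprenoid branches were examined next. Of 20 SREBP1 and fatty acid synthesis genes, all tested, 5 were called higher and 2 lower. This was 35.0%, near the 37.7% of all genes tested, and the median log2 fold change was 0.02. The elongase gene *Elovl6* (0.64 ± 0.12, adjusted p = 0.0016), the malic enzyme gene *Me1* (0.64 ± 0.08, adjusted p = 0.000112), the citrate carrier gene *Slc25a1* (0.64 ± 0.10, adjusted p = 0.000657) and *Mlxipl* (0.77 ± 0.29, adjusted p = 0.0466) rose. The elongase gene *Elovl1* (-1.38 ± 0.09, adjusted p = 4.55e-06) and the desaturase gene *Fads3* (-0.80 ± 0.28, adjusted p = 0.0307) fell. *Mlxipl* and *Fads3* were low, at 0.775 and 1.91 CPM in Control (NT), and were called in 12 and 14 of 18 settings. With the GC content correction *Elovl6* (0.46) and *Me1* (0.51) were short of 1.5-fold, *Fads3* (-0.62, adjusted p = 0.0744) did not pass the adjusted p, and *Slc25a1* was at 1.098. Of 16 genes of the other isoprenoid branches, 1 was called, the dolichol kinase gene *Dolk* (-0.62 ± 0.13, adjusted p = 0.00276). That was 6.25%, against 37.7% of all genes tested, and the median was -0.01. *Dolk* was at 8.05, 7.93 and 9 CPM in Control (NT) and at 4.98, 5.12 and 6.17 CPM in KD-1. It was called in 10 of 18 settings, and with the GC content correction its value was -0.38, short of 1.5-fold.

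**Figure D5:**
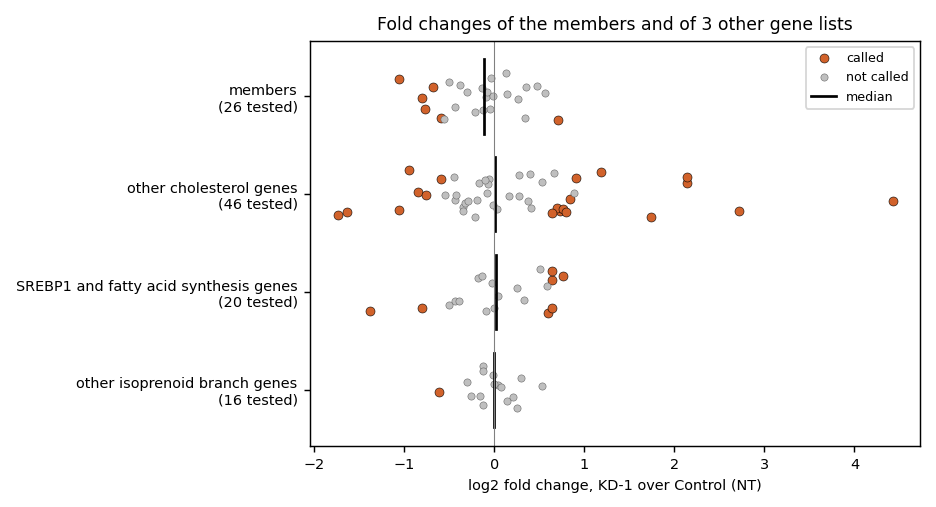
Log2 fold changes of KD-1 over Control (NT) are shown for the 26 members and 3 other gene lists, 1 point per gene, filled in orange where called, with a black bar at the median of each list and points spread vertically for legibility. The medians of all 4 lists lie close to 0, from -0.11 for the members to 0.02, and the farthest points, *Lipa* and *Abcg1*, are among the other cholesterol genes.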

How the data were processed

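Per the paper's methods, TruSeq libraries were sequenced as paired-end reads, demultiplexed with bcl2fastq and quantified by Salmon 1.1 using a Gencode annotation of unstated species series. The authors deposited estimated counts per Ensembl gene in whole numbers, without normalization. The use of strand is not given in the sources used here. Column suffixes do not correspond to the replicate numbers of the labels, so libraries are named by depth within their group. Totals were 20982249 to 56674906 counts in Control (NT) and 41180012 to 85561026 in KD-1.

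The counts were tested with edgeR 4.0.16 in R 4.3.3 (filterByExpr, TMM, robust quasi-likelihood fit, Benjamini-Hochberg adjustment over 15110 genes), after the procedure was tested on simulated data. DESeq2 1.42.0 and limma 3.58.1 served as alternatives. The GC content correction gave each library an offset per gene from a smooth of its log2 CPM, centred on each gene's mean, on the GC content of the canonical transcript, inside the same edgeR fit. CPM are TMM-scaled, and per-length levels divide by the canonical transcript (GENCODE vM39, GRCm39, which matched 35222 identifiers). The 26 members, the other lists and the markers were chosen with earlier results of these data known. From each other list, up to 4 called genes with the largest rises and 4 with the largest falls were named, given at least 10 counts in every library of 1 group. Some genes that this rule names are not reported here. The level of *T-UCstem1* was not analysed here.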

Additional observations from a re-analysis of the deposited data

How the results depend on the processing

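In all 17 alternatives, 23 of the 26 members kept their sign, and *Cyp51*, *Sc5d* and *Insig2*, none of them called, did not. *Mvk* was called in every setting, and *Mvd*, *Tm7sf2*, *Scap* and *Stard4* in every setting but the GC content correction, while 17 members were called in none. The count of members called higher, 1, was 2 with DESeq2, RLE normalization, library totals alone, at least 10 counts in every library, and chromosome 1 left out of the normalization, where *Idi1* passed 1.5-fold, and 0 with the GC content correction. The count called lower, 5, was 1 with that correction. With an absolute log2 fold change over 1 the counts were 0 higher and 1 lower, and with no fold threshold 6 and 10. Leaving out each library in turn gave 1 to 2 higher, 2 being without the KD-1 library of lowest depth, and 4 to 7 lower. The GC content correction and the chromosome 1 alternative were chosen after seeing the data. No paired analysis was possible because the columns carry no replicate numbers that correspond to the labels.

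The median log2 fold change over all members, -0.11, was -0.0812 with DESeq2, -0.0865 with RLE, -0.0546 with library totals alone, -0.0682 with the stricter count minimum and -0.0527 without chromosome 1, and -0.12 to -0.0913 without single libraries. The GC content correction moved the medians to -0.0167 for acetyl-CoA to mevalonate, -0.25 for mevalonate to farnesyl diphosphate, 0.10 for squalene to lanosterol, -0.21 for lanosterol to cholesterol and -0.11 for the SREBP regulators. Library totals alone, the stricter minimum and the fit without chromosome 1 gave 0.19, 0.18 and 0.19 for squalene to lanosterol, -0.0295, -0.0432 and -0.0274 for lanosterol to cholesterol, and -0.32, -0.34 and -0.32 for the SREBP regulators. For lanosterol to cholesterol DESeq2 and RLE gave -0.0560 and -0.0618. Without single libraries the ranges were 0.07 to 0.15, -0.64 to -0.52, 0.00317 to 0.21, -0.12 to -0.0588 and -0.42 to -0.34 in pathway order, and -0.65 to -0.19 for transport and efflux, set by the Control (NT) libraries of middle and lowest depth.

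Of the other cholesterol genes, 11 to 14 were called higher and 5 to 7 lower without single libraries. For fatty acid genes these ranges were 3 to 6 higher and 1 to 2 lower, with 3 higher and 1 lower without the Control (NT) library of lowest depth, 1 lower without the KD-1 library of middle or highest depth, and 1 lower with the GC content correction. For the isoprenoid genes they were 0 to 1 in each direction, with 1 higher with library totals alone and without chromosome 1, and 0 lower with DESeq2, library totals alone, the stricter minimum, the GC content correction and without chromosome 1. The cause of these shifts was not tested. *Abca1* had the fewest counts of the members, 103 to 288 per library.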
